A study of Mus musculus with 6 samples.

Results

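The miR-99, miR-100 and miR-125 miRNAs were read by 7 of the 768 RT-PCR wells of the study, all 7 on the first of its 2 cards. The rule that picks them uses names only: they are the wells whose assay name, without species prefix and strand suffix, was miR-99a, miR-99b, miR-100, miR-125a or miR-125b. Names marked as the minor strand (#) were not counted as members. The assays were mmu-miR-99a, mmu-miR-99b, mmu-miR-100, mmu-miR-125a-5p, mmu-miR-125b-5p, mmu-miR-125a-3p and mmu-miR-125b-3p; the mouse prefix is left out below.

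The samples were right lungs of newborn mice taken at day 7 of life. In the hyperoxia group (3 samples), mice had breathed 95% oxygen from before 12 hours of age for 7 days, and in the room air group (3 samples) they had breathed room air for the same time. In both groups the dams were rotated daily between the 2 atmospheres, and the pulmonary artery was flushed with saline before the lung was frozen. No strain or genotype is given in the labels, and they do not say whether each sample is a different animal. The p-values therefore rest on the spread among these 6 samples, some of which may be technical. Whole lung was measured, so fewer cells of a type and less RNA per cell cannot be told apart. The study compared miRNA levels in lungs exposed to high oxygen, a model of the injury of oxygen-treated preterm infants, with those in room air.

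MicroRNAs are short RNAs that pair with messenger RNAs through bases 2 to 8, the seed, and lower the output of those messages. miR-125 is the vertebrate form of lin-4, which together with let-7 times development in Caenorhabditis elegans, and the mammalian miRNAs repress Lin28 among other targets. miR-99 and miR-100 share a seed of their own and are known to repress the growth kinase mTOR. In mammals a miR-99 or miR-100 hairpin, a let-7 hairpin and a miR-125 hairpin lie together on each of several chromosomes, an arrangement that is shared with the fly.

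The mature sequences below, from RefSeq on GRCm38.p6, show which assays share a seed, which is in capitals. The first 3 have the seed of miR-99 and miR-100 and the next 3 that of miR-125; miR-10a is shown because it carries nearly the same letters moved by 1 base.
miR-99a-5p: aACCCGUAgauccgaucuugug
miR-100-5p: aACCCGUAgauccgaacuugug
miR-99b-5p: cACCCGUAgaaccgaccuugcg
miR-125a-5p: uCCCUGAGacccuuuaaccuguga
miR-125b-5p: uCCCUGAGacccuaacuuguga
miR-351-5p: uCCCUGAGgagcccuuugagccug
miR-10a-5p: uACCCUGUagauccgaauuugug
miR-125a-3p: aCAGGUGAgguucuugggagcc
miR-125b-1-3p: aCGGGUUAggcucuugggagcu
miR-125b-2-3p: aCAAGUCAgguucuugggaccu

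miR-99a and miR-100 differ by the single substitution U16A, counted from the 5′ end of miR-99a, and whether their assays partly read each other was not tested. miR-99b differs from miR-99a at 4 positions. miR-125a-5p and miR-125b-5p share their first 13 bases and then diverge, and they are 24 and 22 bases long in that order. Among 1679 mature mouse miRNAs in the RefSeq table, 3 carry the seed of miR-99 and miR-100, and 5 carry that of miR-125, among them miR-351-5p. The other strands have seeds of their own, and the assay name miR-125b-3p does not say which of its 2 hairpins it reads.

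The hairpins form 3 clusters, all on the plus strand. miR-99b-5p at chr17:17830194-17830215 lies 172 bases before let-7e-5p and 623 bases before miR-125a-5p, counted between their starts. miR-99a-5p at chr16:77598940-77598961 lies 732 bases before let-7c-5p and 47339 bases before a copy of miR-125b-5p at chr16:77646279-77646300. miR-100-5p at chr9:41531437-41531458 lies 5340 bases before the 3′ strand of let-7a-2 and 50503 bases before the other copy of miR-125b-5p at chr9:41581940-41581961. An assay of miR-125b-5p therefore sums the products of both copies.

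All 7 assays amplified in all 6 samples, with a threshold cycle (Ct) under 30 throughout. Ct counts the PCR cycles needed to reach a set signal: abundant RNAs cross early, and with perfect doubling each cycle is a 2-fold step. In every assay the mean Ct was later in hyperoxia, by 0.56 to 1.67 cycles, but so were most miRNAs of the card, whose median log2 change without normalization was -0.90. Changes are therefore given as log2 relative abundance, the mean Ct of the 282 first-card miRNAs detected in all samples minus the Ct of the assay. On that scale 6 of the 7 assays had a negative log2 fold change of hyperoxia over room air and 1 a positive value, with a median of -0.33, and the median of all 551 assays tested was -0.12 with 57.9% negative. By limma with Benjamini-Hochberg adjustment over all 551 assays, 0 of the 7 passed an adjusted p of 0.05, as did 0 of all assays (0%); at an unadjusted p under 0.05 the counts were 0 of 7 and 50 of 551 (9.07%), of which 30 were lower (5.44%) and 20 higher (3.63%). On this scale the groups overlapped in all 7, while 16.3% of the 282 first-card assays with 6 values were lower and 5.67% higher in every hyperoxia sample than in every room air sample.

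The whole series sets the precision. The first card detected 312 to 319 miRNAs under a Ct of 35 in hyperoxia and 307 to 317 in room air. Its mean miRNA Ct ran from 22.61 to 23.47 in hyperoxia and from 22.03 to 22.60 in room air. Lung markers were present in both groups, with the endothelial miR-126-3p at a mean Ct of 13.17 in hyperoxia and 11.79 in room air, and all 5 epithelial miR-200 family assays and all 4 smooth muscle and mesenchymal assays detected in all 6 samples. On the second card, room air replicate 1 and hyperoxia replicate 2 had the same Ct in 308 of the 309 wells that amplified in both, so these values were left out and second-card assays rest on 2 samples per group. On the first card these samples shared 0 of 312 values, and the members were also fitted without both samples.

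**Figure D1:**
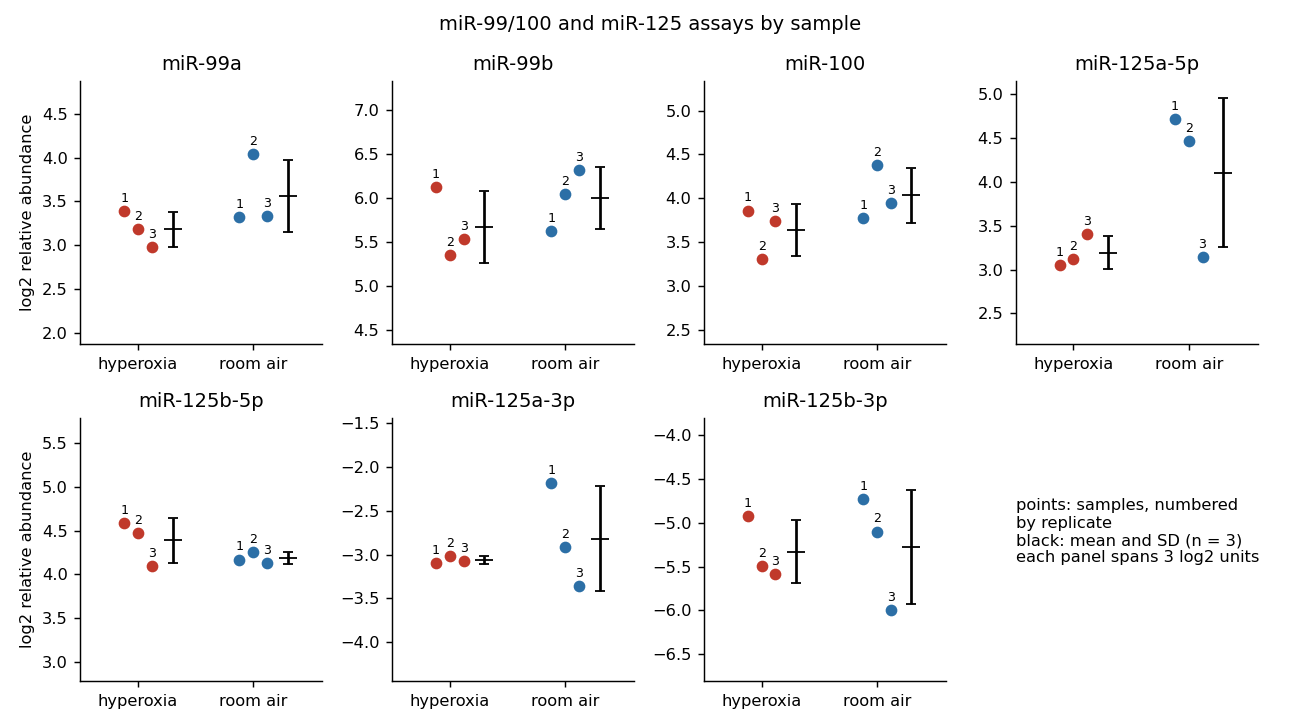
Log2 relative abundance (vertical axis, log2 units) of the 7 assays in each sample, hyperoxia in red on the left and room air in blue on the right, with the mean and SD (n = 3) in black. Hyperoxia and room air samples overlap in every panel, and the room air samples of miR-125a-5p spread from 3.14 to 4.72 while those of hyperoxia lie between 3.05 and 3.40.

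miR-99a, miR-99b and miR-100 had nearly the same change. miR-99a, from chromosome 16, had a Ct of 20.08, 19.43 and 20.33 in hyperoxia replicates 1 to 3, against 18.7, 18.44 and 19.27 in room air replicates 1 to 3. miR-100, from chromosome 9, had a Ct of 19.61, 19.3 and 19.57 in hyperoxia, against 18.26, 18.1 and 18.65 in room air. miR-99b, from chromosome 17 and the earliest of the 7, had a Ct of 17.34, 17.27 and 17.77 in hyperoxia, against 16.4, 16.43 and 16.27 in room air. In raw cycles the hyperoxia samples were later than all room air samples in each of the 3, by 1.14, 1.16 and 1.09 cycles on average for miR-99a, miR-100 and miR-99b, as were 46.5% of the 282 first-card assays.

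Relative to the other miRNAs, most of that difference was gone. miR-99a averaged 3.18 ± 0.20 in hyperoxia and 3.56 ± 0.41 in room air (log2 relative abundance, SD, n = 3 each), a log2 fold change of -0.38 ± 0.30 (SE of the fit) with a 95% confidence interval from -1.14 to 0.37 (limma adjusted p = 0.737). miR-100 averaged 3.64 ± 0.29 in hyperoxia and 4.03 ± 0.32 in room air, a log2 fold change of -0.40 ± 0.29 with an interval from -1.13 to 0.33 (limma adjusted p = 0.689). miR-99b averaged 5.67 ± 0.41 in hyperoxia and 6.00 ± 0.35 in room air, a log2 fold change of -0.33 ± 0.33 with an interval from -1.16 to 0.50 (limma adjusted p = 0.775). None of the 3 passed the threshold, and each interval included 0. Together the intervals leave room for a level in hyperoxia between 0.448 and 1.42 times that in room air. Room air replicate 2 was the highest sample for miR-99a (4.04) and miR-100 (4.38), and without it their log2 fold changes were -0.14 and -0.22; that of miR-100 was also -0.22 without hyperoxia replicate 2. That of miR-99b was -0.16 without hyperoxia replicate 2, -0.18 without room air replicate 3, -0.57 without hyperoxia replicate 1 and -0.52 without room air replicate 1.

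The ratios among these 3 miRNAs need no reference, and none differed between the groups beyond its spread. The Ct of miR-99a exceeded that of miR-100 by 0.475, 0.128 and 0.766 cycles in hyperoxia, against 0.446, 0.343 and 0.626 cycles in room air. Its mean was 0.456 ± 0.319 cycles in hyperoxia and 0.472 ± 0.143 in room air (SD, n = 3 each), a difference of -0.015 cycles (exact permutation p = 1, two-sided). The Ct of miR-99a exceeded that of miR-99b by 2.49 ± 0.30 cycles in hyperoxia and 2.44 ± 0.51 in room air (exact permutation p = 0.9), and miR-99b was earlier than miR-100 by a mean difference of -2.03 cycles in hyperoxia and -1.97 in room air (exact permutation p = 0.8). A p that misses the threshold does not show that the ratios were equal, and 3 samples against 3 cannot give a p below 0.1. In all, 8 such ratios were compared, with adjusted p from 0.4 to 1.

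**Figure D2:**
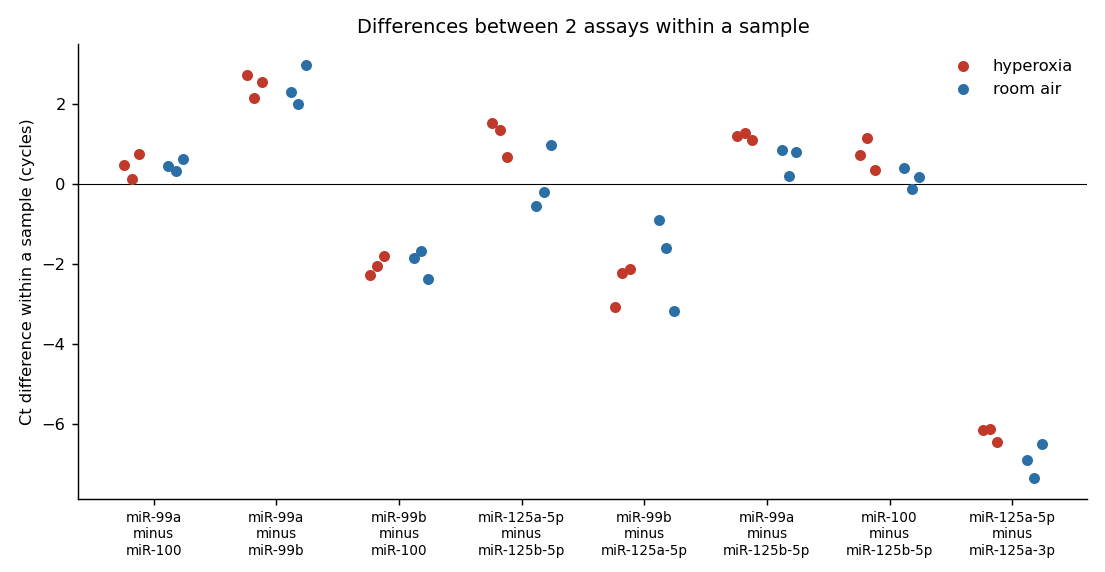
Difference in Ct between 2 assays of the same sample (vertical axis, cycles) for the 8 pairs compared, hyperoxia in red to the left of room air in blue; a positive value means that the first-named assay crossed the threshold later. The pairs among miR-99a, miR-99b and miR-100 overlap between groups, while miR-99a minus miR-125b-5p and miR-125a-5p minus miR-125a-3p do not.

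miR-125a-5p, the main strand of the chromosome 17 hairpin, had the most negative change of the 7, and its room air samples disagreed with each other. Its Ct was 20.42, 19.49 and 19.91 in hyperoxia, against 17.31, 18.02 and 19.46 in room air. On the log2 scale of relative abundance it stood at 3.05, 3.12 and 3.40 in hyperoxia, against 4.72, 4.46 and 3.14 in room air. Room air replicates 1 and 2 lay above all hyperoxia samples and room air replicate 3 lay among them. The log2 fold change was -0.91 ± 0.47 (SE), or 0.531-fold with a 95% confidence interval from 0.236 to 1.19 (limma adjusted p = 0.667). Its pooled SD of 0.614 exceeded that of 66.7% of the 282 first-card assays. Its size changed with the room air samples used: the log2 fold change was -1.41 without room air replicate 3 (limma adjusted p = 0.113) and -0.61 without replicate 1 (limma adjusted p = 0.83). It was -0.58 without both samples that share second-card values.

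Of the 2 endothelial assays, miR-126-3p had high and low samples like those of miR-125a-5p, and miR-126-5p did not. Outside that list miR-193b had them too, at 4.49, 4.32 and 4.18 in hyperoxia, against 4.66, 4.73 and 4.24 in room air. How many assays of the card share them was not counted. miR-126-3p stood at 9.90, 9.92 and 10.07 in hyperoxia, against 10.73, 11.10 and 9.90 in room air, with room air replicate 3 again as low as hyperoxia. miR-126-5p stood at 7.15, 6.98 and 7.48 in hyperoxia, against 7.24, 7.5 and 7.29 in room air, a log2 change of -0.14. miR-126-3p lies in plate row C, as do 6 of the 7 members, miR-125a-5p among them. The 16 assays of that row with 6 values that are not members, miR-126-3p included, had a median log2 fold change of -0.10. The summed level of the endothelial list of 2 assays ran from 10.10 to 10.29 in hyperoxia and from 10.12 to 11.22 in room air. That sum is mostly miR-126-3p, and its part in the value of miR-125a-5p was not tested. The sum of the smooth muscle and mesenchymal list ran from 7.98 to 8.37 in hyperoxia and from 8.38 to 8.62 in room air. It was thus narrowly without overlap. That sum is mostly miR-145, the only 1 of its 4 assays lower in every hyperoxia sample, as were 16.3% of single first-card assays. The share among sums of several assays was not computed. miR-145 and miR-143 had log2 fold changes of -0.68 and -0.29, against 0.24 and 0.49 for miR-199a-3p and miR-214, and 0 of the 4 passed. The first-card sums of the epithelial, leukocyte, striated muscle and erythroid lists overlapped between the groups.

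miR-125b-5p was the only member with a positive change of log2 relative abundance. Its Ct was 18.88, 18.14 and 19.21 in hyperoxia, against 17.86, 18.23 and 18.47 in room air, so that hyperoxia replicate 2 was earlier than 2 of the room air samples. Relative abundance averaged 4.39 ± 0.26 in hyperoxia and 4.18 ± 0.07 in room air (SD, n = 3 each), a log2 fold change of 0.20 ± 0.24 with a 95% confidence interval from -0.40 to 0.81 (limma adjusted p = 0.815). In fold terms the interval runs from 0.757 to 1.75. It had the smallest pooled SD of the 7, 0.189, and only 9.93% of the first-card assays had a smaller one. Leaving out 1 sample moved its log2 fold change between 0.09, without hyperoxia replicate 1, and 0.32, without hyperoxia replicate 3. Over 27 alternative settings its log2 fold change was positive in 24 and negative in 3. The negative values were -0.36 relative to the control RNAs, -0.12 relative to the row A U6 wells and -0.56 without normalization.

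The main strands miR-125a-5p and miR-125b-5p were set against each other and against their neighbours. The Ct of miR-125a-5p exceeded that of miR-125b-5p by 1.54, 1.35 and 0.692 cycles in hyperoxia, against -0.553, -0.201 and 0.99 cycles in room air. The groups overlapped through room air replicate 3 alone, and the difference of 1.12 cycles had an exact permutation p of 0.2 (0.4 adjusted over the 8 pairs). The Ct of miR-99a exceeded that of miR-125b-5p, encoded on the same chromosome 16 cluster, by 1.21, 1.30 and 1.12 cycles in hyperoxia, against 0.846, 0.218 and 0.802 cycles in room air. These groups did not overlap, and the difference of 0.58 cycles had an exact permutation p of 0.1, the smallest possible (0.4 adjusted), and was 0.38 without room air replicate 2. On chromosome 9, the Ct of miR-100 exceeded that of miR-125b-5p by 0.750 ± 0.408 cycles in hyperoxia and 0.150 ± 0.263 in room air (SD, n = 3 each), with overlap (exact permutation p = 0.2); that difference was 0.39 without hyperoxia replicate 2. Relative to miR-125b-5p, miR-99a and miR-100 were thus later in hyperoxia by 0.58 and 0.60 cycles on average, without passing the threshold. Both differences use the same miR-125b-5p assay, which sums the copies of both chromosomes, so they are not independent and do not read each cluster alone. The chromosome 17 pair ran the other way: the Ct of miR-99b minus that of miR-125a-5p was -2.48 ± 0.52 cycles in hyperoxia and -1.89 ± 1.17 in room air (SD, n = 3 each), with overlap (exact permutation p = 0.5). That difference of -0.59 cycles was -0.09 without room air replicate 1, -0.28 without hyperoxia replicate 1 and -1.23 without room air replicate 3. Of the 8 pairs, 2 did not overlap between the groups; among all 39621 pairs of first-card assays with 6 values the share was 18.3%.

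The other strands were far later. miR-125a-3p had a Ct of 26.57, 25.63 and 26.38 in hyperoxia, against 24.21, 25.39 and 25.96 in room air. Its log2 fold change was -0.25 ± 0.36 (limma adjusted p = 0.866), and it was 0.07 without room air replicate 1 and -0.53 without room air replicate 3. Its relative abundance was nearly constant in hyperoxia, -3.06 ± 0.04, and spread in room air, -2.82 ± 0.59 (SD, n = 3 each). As in miR-125a-5p, room air replicate 1 was the highest of the 6 samples (-2.19), and here room air replicate 3 was the lowest (-3.36).

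miR-125b-3p, at a Ct of 28.39, 28.10 and 28.89 in hyperoxia, against 26.76, 27.59 and 28.59 in room air, was the latest of the 7. Its log2 fold change was -0.05 ± 0.41 with a 95% confidence interval from -1.08 to 0.98 (limma adjusted p = 0.969). The sign of this value is not fixed by the data. It was 0.22 without room air replicate 1, 0.04 without room air replicate 2, hyperoxia replicate 2 or hyperoxia replicate 3, and -0.42 without room air replicate 3.

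The gap between the strands of the miR-125a hairpin differed between the groups without overlap. The Ct of miR-125a-5p minus that of miR-125a-3p was -6.15, -6.14 and -6.47 cycles in hyperoxia, against -6.91, -7.36 and -6.50 cycles in room air. The main strand was thus ahead by a smaller margin in every hyperoxia sample, by 0.67 cycles on average, although hyperoxia replicate 3 and room air replicate 3 differed by only a few hundredths of a cycle (exact permutation p = 0.1, 0.4 adjusted). The mean difference was 0.45 without room air replicate 2. For miR-125b, whose 3′ strand assay may read 1 of its hairpins only, the Ct of the 3′ strand exceeded that of the 5′ strand by 9.72 ± 0.23 cycles in hyperoxia and 9.46 ± 0.62 in room air (SD, n = 3 each), with overlap. Assays differ in efficiency, so a gap in cycles between assays is not a ratio of molecules, and whether a change of the gap depends on efficiency was not tested.

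The order of the 7 by Ct was read in each group. In hyperoxia miR-99b came first with a mean Ct of 17.46, then miR-125b-5p at 18.74, miR-100 at 19.49, miR-125a-5p at 19.94, miR-99a at 19.95, miR-125a-3p at 26.19 and miR-125b-3p at 28.46. In room air miR-99b came first at 16.37, then miR-125b-5p at 18.18, miR-125a-5p at 18.26, miR-100 at 18.34, miR-99a at 18.81, miR-125a-3p at 25.19 and miR-125b-3p at 27.65. Only miR-125a-5p and miR-100 exchanged places, and in both groups miR-99b was ahead of, and the 3′ strands behind, all other members in every sample. Within samples, miR-99a was later than miR-100 and than miR-125b-5p in all 6. In hyperoxia miR-125b-5p was ahead of miR-100, and miR-100 ahead of miR-125a-5p, in all 3 samples, while miR-125a-5p and miR-99a changed places between samples. In room air miR-125b-5p, miR-125a-5p and miR-100 changed places between samples. Among the 282 first-card assays, miR-99b ranked 22nd by Ct over all samples and miR-125b-3p 245th.

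**Figure D3:**
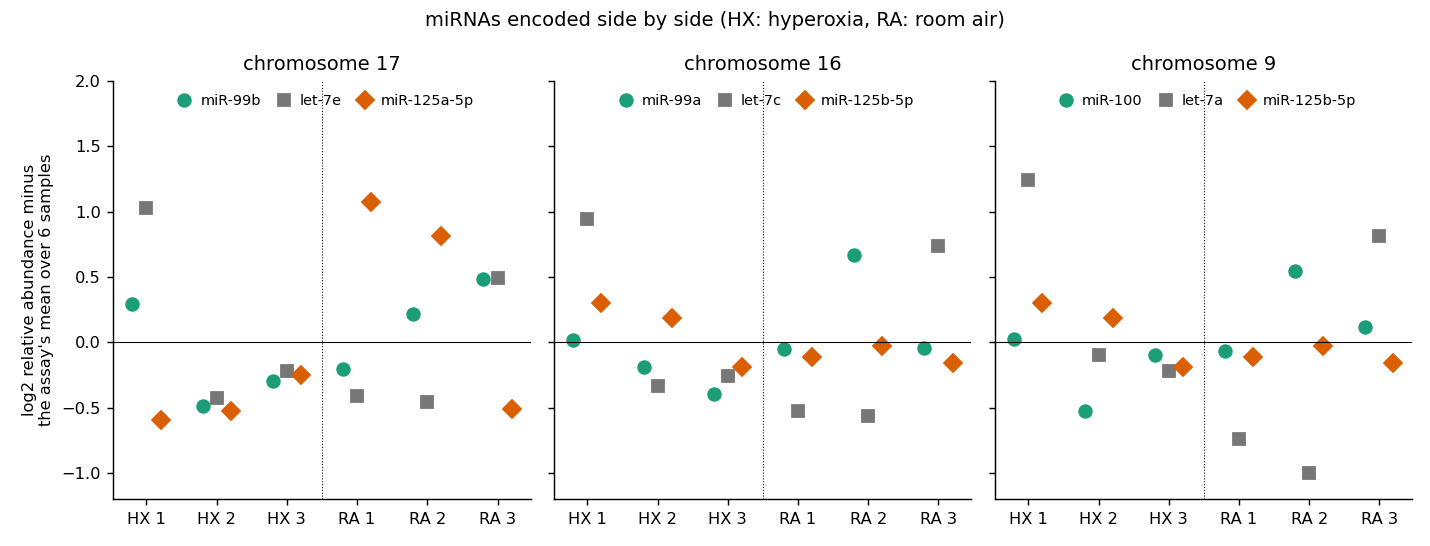
Log2 relative abundance minus the mean of the assay over 6 samples (vertical axis, log2 units) for the miRNAs of each chromosomal cluster, hyperoxia (HX) replicates left of room air (RA) replicates. The let-7 assays (squares) are highest in hyperoxia replicate 1 and room air replicate 3, while on chromosome 17 miR-125a-5p (diamonds) is highest in room air replicates 1 and 2.

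In each of these clusters a let-7 miRNA is encoded between the members, and the let-7a and let-7c assays also read copies on other chromosomes. let-7e, let-7c and let-7a had log2 fold changes of 0.26 ± 0.51, 0.24 ± 0.54 and 0.61 ± 0.65 (SE; limma adjusted p of 0.887, 0.914 and 0.787), and 0 of the 3 passed. All 3 were positive where miR-99a, miR-99b and miR-100 were negative, but without hyperoxia replicate 1 let-7e was at -0.20, let-7c at -0.18 and let-7a at 0.14. let-7a was at 0.40 without room air replicate 1, 0.27 without replicate 2 and 1.17 without replicate 3. The Ct of let-7e minus that of miR-99b, which lies 172 bases away, was -0.59, 0.09 and 0.07 cycles in hyperoxia, against 0.35, 0.82 and 0.14 cycles in room air, a difference of -0.58 cycles with no overlap (-0.36 without hyperoxia replicate 1). The other 5 differences between a let-7 and a member of its cluster overlapped between the groups and ran from -1.17 cycles, for let-7e minus miR-125a-5p, to -0.04, for let-7c minus miR-125b-5p; 18.3% of all first-card pairs did not overlap. The let-7e and miR-99b pair was chosen with its values known and was not tested. let-7e stood at 6.72, 5.26 and 5.47 in hyperoxia, against 5.28, 5.23 and 6.18 in room air on the log2 scale, so that hyperoxia replicate 1 and room air replicate 3 were its high samples. The same 2 samples were the highest for let-7c and let-7a.

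The minor strands marked # were assayed on the second card, where each group keeps 2 samples, under names that are out of step with the listed assay numbers, so their identity is uncertain. Of 4 such assays, 3 had negative values and 0 passed. hsa-miR-99b# had a Ct of 24.14 and 24.27 in hyperoxia, against 23.33 and 23.94 in room air, a fitted log2 value of -0.39 ± 0.41 (limma adjusted p = 0.80). The assays mmu-miR-125b#, rno-miR-125b# and rno-miR-99a# were at -0.25 ± 0.43, -0.55 ± 0.69 and 0.04 ± 0.35 (limma adjusted p of 0.875, 0.835 and 0.969). For rno-miR-125b#, room air replicate 3 had the same Ct, 27.13, as the values that were left out. The value of rno-miR-99a# turned to -0.24 with the shared values given to hyperoxia.

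miR-10a and miR-10b, of the Hox gene clusters, have another seed than miR-99a, although miR-10a shares a run of 10 bases with miR-99a. miR-10a was at -0.15 ± 0.24 (limma adjusted p = 0.867). The first-card assay of miR-10b had a Ct of 24.87, 24.64 and 25.16 in hyperoxia, against 23.44, 23.31 and 23.42 in room air, and its log2 fold change was -0.74 ± 0.31 (limma adjusted p = 0.589). Another assay named miR-10b on the second card was later, with a mean Ct of 28.75 in hyperoxia and 28.25 in room air, and was at -0.31 ± 0.60 (limma adjusted p = 0.887). None of these 3 assays passed, and on relative abundance the groups overlapped in both first-card assays.

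miR-351, a rodent miRNA encoded in another cluster on the X chromosome, carries the miR-125 seed and was looked up after the values of the members were known. The mouse assay had a Ct of 23.27, 22.59 and 22.10 in hyperoxia, against 19.25, 20.98 and 20.76 in room air. Its log2 fold change was -1.56 ± 0.49 and that of the rat assay -1.70 ± 0.56, both with a limma adjusted p of 0.446. In both, every hyperoxia sample was below every room air sample, as in 16.3% of the 282 first-card assays. Both assays carry the name miR-351, so they are not 2 independent results. Without both samples that share second-card values, the mouse and rat assays were at -0.97 and -1.26. Within the miR-125 seed the values thus ran from -1.70 to 0.20, and 0 of the 4 assays with this seed passed.

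**Figure D4:**
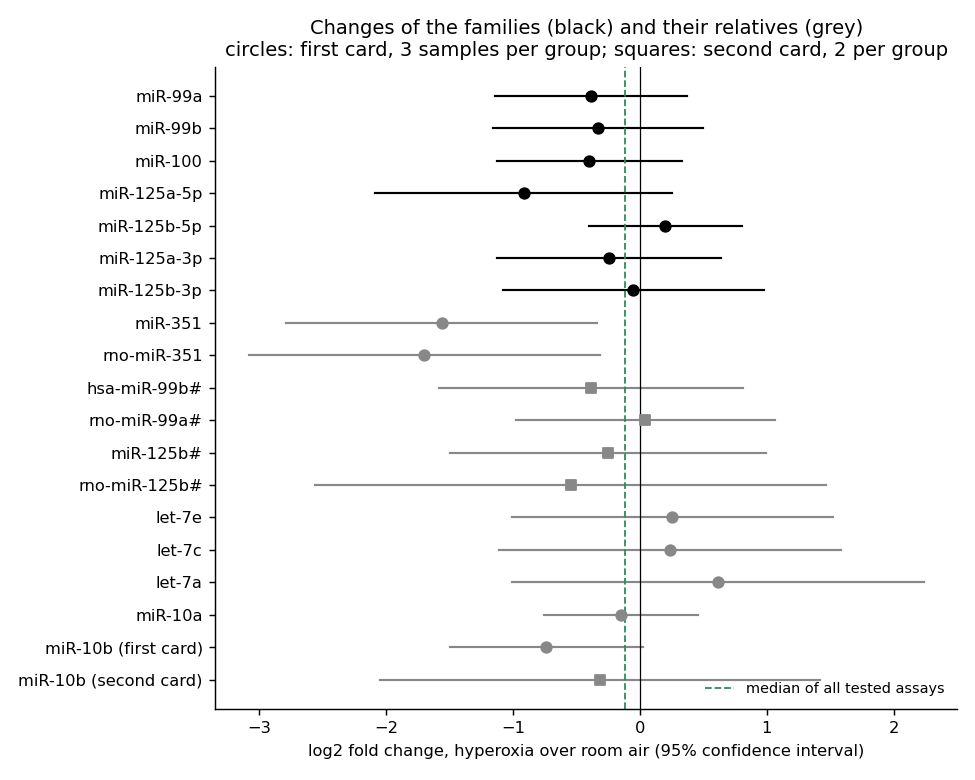
Log2 fold change of hyperoxia over room air with its 95% confidence interval (horizontal axis, log2 units) for the 7 members in black and their relatives in grey; circles are first-card assays with 3 samples per group and squares second-card assays with 2. The intervals of all 7 members include 0, and the dashed line marks the median of all tested assays, -0.12.

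Apart from quantile normalization, a change of reference moves all members by the same amount. Relative to the 5 control RNAs of the card (U6, snoRNAs and Y1 among them), all 7 were negative, from -1.48 for miR-125a-5p to -0.36 for miR-125b-5p, and 3 of 7 were lower in every hyperoxia sample, where 37.2% of the first-card assays were. Without normalization all 7 were negative, from -1.67 to -0.56, and miR-99a, miR-99b, miR-100 and miR-125a-5p were later in every hyperoxia sample (4 of 7, against 46.5% of the first-card assays); 0 of 7 were earlier, against 1.06%. The median of the first-card assays tested was -0.69 relative to the control RNAs and -0.90 without normalization. Relative to all U6 wells of the card, 6 of 7 were negative, from -0.93 for miR-125a-5p to 0.19 for miR-125b-5p, with a first-card median of -0.15. Relative to the row A U6 wells, all 7 were negative, from -1.24 to -0.12, with a first-card median of -0.46. The authors' deposited table refers to U6 wells, and its values lie near those with the row A wells. There the fold of hyperoxia over room air was 0.612 for miR-99a, 0.635 for miR-99b, 0.606 for miR-100, 0.423 for miR-125a-5p, 0.918 for miR-125b-5p, 0.673 for miR-125a-3p and 0.770 for miR-125b-3p. The order of the members is therefore the same by construction in 6 of the 7 references. With quantile normalization, the only one that can alter it, miR-125a-5p was at -0.99, miR-99b at -0.47, miR-125a-3p at -0.45, miR-100 at -0.42, miR-99a at -0.36, miR-125b-3p at -0.11 and miR-125b-5p at 0.23.

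**Figure D5:**
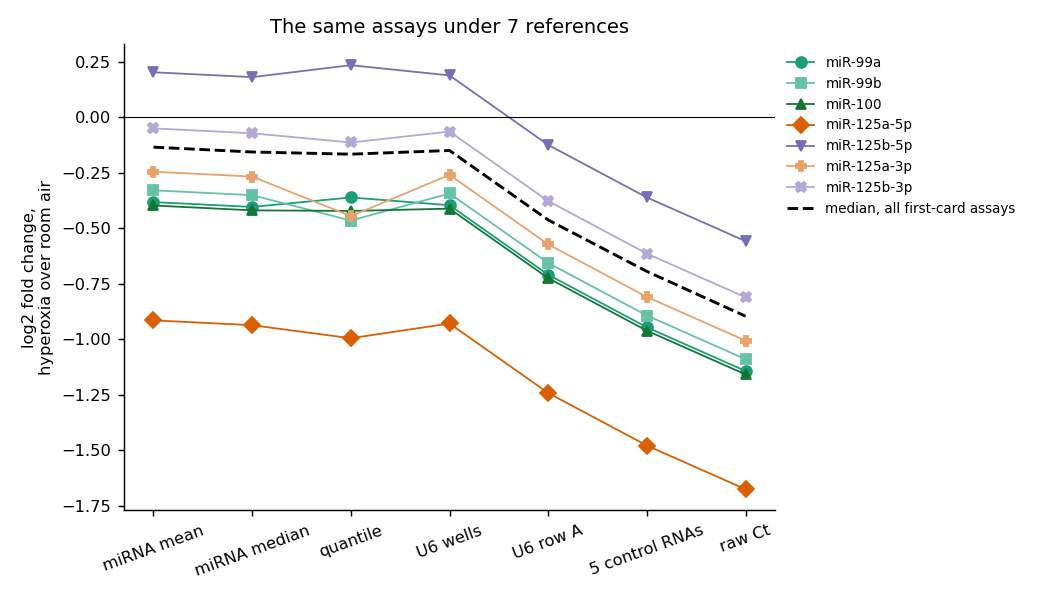
Log2 fold change of hyperoxia over room air (vertical axis, log2 units) of each member under 7 references, with the median of all first-card assays tested as a dashed line. The members shift with the median, which is -0.13 with the miRNA mean and -0.90 with raw Ct, by 1 common offset in all but quantile normalization.

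By the root mean square difference of centred profiles over the 6 samples, the first-card assays nearest to the mean profile of the 7 members were miR-193b, miR-431, miR-539, miR-340-3p and miR-195. Their differences were 0.068, 0.126, 0.134, 0.138 and 0.138 log2 units, where the median over the 275 other assays was 0.491. miR-193b stood at 4.49, 4.32 and 4.18 in hyperoxia, against 4.66, 4.73 and 4.24 in room air. Their log2 fold changes ran from -0.34 to -0.15. The members themselves lay 0.207 (miR-99a) to 0.488 (miR-125a-5p) from their own mean profile, so that each of these 5 assays was nearer to it than any member was. The 5 were picked as the smallest of 275 differences and the members were not. How alike the members are therefore cannot be read from this comparison.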

How the data were processed

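The authors deposited 1 table with a raw Ct per well and sample, a score on the cycle scale with 40 for no amplification. Per the labels' protocols, RNA was copied with Megaplex primers in 2 pools and the cDNA pre-amplified; instrument, software and Ct threshold are not given in the sources used here. The table also holds, per the file headers, the authors' difference between groups on a log2 scale and the fold (ratio) from it; the fold was copied.

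A Ct of 35 or more counted as not detected. Log2 relative abundance was a card's mean Ct over the miRNAs detected in every sample kept (282 and 249 assays) minus the Ct. Assays with at least 2 detected samples in each group were tested (302 and 249) by limma 3.58.1 in R 4.3.3 (lmFit and eBayes, two-sided, Benjamini-Hochberg over all 551; prior with 1.62 degrees of freedom), after the function was tested on simulated data. Single ratios were compared with an exact permutation test (scipy 1.17.1). The number of samples limits the precision. All members and relatives are named, with the 5 nearest profiles. Members and lists were chosen with earlier results of these data known. Alternatives changed reference, Ct ceiling, assays, samples and variance model.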

Additional observations from a re-analysis of the deposited data

How the results depend on the processing

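Over 27 alternatives (26 for miR-125b-3p, which a Ct ceiling of 28 leaves untested), 0 of the 7 members passed. miR-99a, miR-99b, miR-100 and miR-125a-5p stayed negative in all of them, the last between -1.67 and -0.58. miR-125b-5p was -0.36 with the control RNAs, -0.12 with the row A U6 wells and -0.56 without normalization. miR-125b-3p was 0.0155 without plate row G. Without both samples that share second-card values, an alternative chosen after seeing the data, miR-125a-3p was 0.0448 and miR-125b-3p 0.30.

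With 1 sample left out, the ranges were -0.51 to -0.14 for miR-99a, -0.57 to -0.16 for miR-99b, -0.53 to -0.22 for miR-100, -1.41 to -0.61 for miR-125a-5p, 0.09 to 0.32 for miR-125b-5p, -0.53 to 0.0709 for miR-125a-3p and -0.42 to 0.22 for miR-125b-3p. Assays past the threshold were 0 to 1 on the higher side, members lower without overlap 0 to 3 and members higher without overlap 0 to 1. First-card assays without overlap were then 55 to 84 lower and 19 to 39 higher, since fewer samples overlap less often.

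Over all assays, 1 passed on the higher side with a Ct ceiling of 32 or 28, with the first card alone, without row G or with an eBayes trend, and 4 higher and 4 lower with a Ct of 40 kept. First-card assays without overlap were 105 lower and 5 higher with the control RNAs, 76 and 6 with the row A U6 wells, 131 and 3 without normalization, 77 and 32 without both samples named above, 19 lower with a ceiling of 28 and 56 higher with a Ct of 40 kept. Members lower without overlap were 2 with the median reference, 3 with the control RNAs, 2 with the row A U6 wells and 4 without normalization. They were 1 with quantile normalization (1 higher), 1 with a ceiling of 32 and 1 without both samples. Of the 282 first-card assays, 46 were lower and 16 higher in the main fit. With the median reference 49 were lower and 12 higher. The share lower was 37.2% with the control RNAs and 46.5% without normalization. Counts over all assays are not given here for quantile normalization or a ceiling of 32, so those member counts are not read as a result.

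Among the relatives, let-7e was -0.31, -0.0713 and -0.50 and let-7c -0.32, -0.0877 and -0.52 with the control RNAs, the row A U6 wells and no normalization. let-7c was -0.0052 with quantile normalization, and let-7a -0.15 without normalization. With 1 sample left out, let-7e ran from -0.20 to 0.56 and let-7c from -0.18 to 0.66, both lowest without hyperoxia replicate 1. rno-miR-99a# was -0.38 with the control RNAs, -0.24 with U6 or with the shared values in hyperoxia, -0.14 without normalization, -0.073 with a ceiling of 28 and -0.0351 with a ceiling of 40. When the first card's mean served both cards, hsa-miR-99b# was 0.28, mmu-miR-125b# 0.41, rno-miR-125b# 0.12 and the second-card miR-10b 0.35; with the median reference mmu-miR-125b# was 0.13 and that miR-10b 0.063. Quantile normalization apart, a change of reference moves all assays of a card that have the same samples by 1 common offset. Reversals under another reference follow from that offset by construction. The cause of the other reversals was not tested.

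Deviations of same-numbered samples on the first card correlated by -0.34, -0.23 and -0.18. Across numbers, the highest correlations were 0.36, between hyperoxia replicate 1 and room air replicate 3, and 0.32, between hyperoxia replicate 2 and room air replicate 1. Whether samples were paired or processed together under other numbers was not tested. The replicate block left 0 assays past the threshold and miR-125a-5p at -0.91 (limma adjusted p = 0.606).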
